A study of Mus musculus with 26 samples.

Results

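Lum, Dcn, Postn, Lox and Tnfrsf11b, which encode secreted products of fibroblasts, and Acta2, Tagln, Cnn1, Myl9 and Actc1, which encode parts of the contractile apparatus, were followed through retinoic acid differentiation of mouse embryonic stem cells (ESC) with and without NAP1L1, a histone chaperone of the nucleosome assembly family. These 10 genes, of 55471 in the count table, were taken by symbol, 5 for each role. They were chosen by their change over days in wild-type cells, so the values of that change are given here without a test. All 10 genes passed the filter on low counts, which used every library. Actc1, with no count in any knockout library of day 0, passed through groups with more counts.

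The cells were KH2, a mouse ESC line, and RNA was sequenced on days 0, 2 and 4 of retinoic acid treatment in wild-type cells (WT), in the genotype labelled NAP1L1 alpha knock-out (alpha-KO in the sample titles, alphaKO here) and in the genotype labelled NAP1L1 knock-out (full-KO, fullKO here). There were 26 libraries in 9 groups, 3 per group except for 2 in fullKO at day 0. Day 0 is the only untreated point, so time and retinoic acid cannot be told apart. A single name prefix runs through all libraries of a knockout genotype, which may therefore be 1 line, and the labels do not say that replicates are separate cultures, so p-values measure only the spread between these libraries. Values are CPM, the deposited counts scaled to a common effective library size, and ± is SD for CPM and SE for log2 fold changes. The words rose, fell, higher, lower and called are used of tested genes where edgeR's quasi-likelihood test gave a Benjamini-Hochberg adjusted p under 0.05 over the 18412 genes tested.

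Fibroblasts secrete the extracellular matrix of connective tissue. Lumican and decorin, from Lum and Dcn, are small leucine-rich proteoglycans that bind collagen fibrils. Periostin, from Postn, is a matrix protein of remodelling tissue, lysyl oxidase, from Lox, cross-links collagen and elastin, and osteoprotegerin, from Tnfrsf11b, is a soluble decoy receptor for the osteoclast-inducing ligand RANKL. Smooth muscle cells and contractile fibroblasts instead assemble smooth muscle actin (Acta2), transgelin (Tagln), calponin (Cnn1) and the myosin regulatory light chain (Myl9), while Actc1 encodes cardiac actin, which many early muscle cells also express. Many contractile genes carry CArG boxes in their promoters, the binding site of serum response factor (SRF). Some of the myocardin family cofactors of SRF sense free actin.

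On GRCm38, Lum (ENSMUSG00000036446.5, chr10:97565128-97572703) and Dcn (ENSMUSG00000019929.16, chr10:97479609-97518143) lie beside each other on the plus strand. Postn (ENSMUSG00000027750.16) is at chr3:54361109-54391037 on the plus strand and Tnfrsf11b (ENSMUSG00000063727.3) at chr15:54250619-54278484 on the minus strand. Lox (ENSMUSG00000024529.14) is named only. Acta2 (ENSMUSG00000035783.9) is at chr19:34241090-34255590, Tagln (ENSMUSG00000032085.5) at chr9:45929619-45936058 and Actc1 (ENSMUSG00000068614.7) at chr2:114047282-114053548, all on the minus strand. Cnn1 (ENSMUSG00000001349.5, chr9:22099216-22109630) and Myl9 (ENSMUSG00000067818.6, chr2:156775420-156781658) are on the plus strand. All 10 are protein-coding genes. Of the 50-base words of the Acta2 transcripts, 0.326% also occur in transcripts of other genes, among them Actg1, and for the other 9 genes none does.

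Because the contractile genes, which were chosen for a rise in WT, moved together in these data, their promoters are shown. RefSeq promoter windows on GRCm38.p6 were held for 5 of the 10 genes. In the 250 bases before each start, both strands were searched for the CArG box, which is CC, then 6 letters that are each A or T, then GG, and for the same pattern with 1 of those 6 letters changed to C or G. Capitals mark these matches and the word TATAAA. Bases that GENCODE M21 annotates as exon were left off the end of each window, and for Acta2, where 217 of the 250 bases are annotated as exon, only 30-base stretches around the matches are given.
Acta2, chr19:34255438-34255467, minus strand: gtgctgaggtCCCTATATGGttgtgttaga
Acta2, chr19:34255388-34255417, minus strand: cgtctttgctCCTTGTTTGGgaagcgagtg
Myl9, chr2:156775214-156775419, plus strand: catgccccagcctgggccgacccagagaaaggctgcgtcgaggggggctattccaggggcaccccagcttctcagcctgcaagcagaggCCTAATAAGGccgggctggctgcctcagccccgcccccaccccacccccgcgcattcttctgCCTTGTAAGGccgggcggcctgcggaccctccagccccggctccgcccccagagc
Actc1, chr2:114052888-114053125, minus strand: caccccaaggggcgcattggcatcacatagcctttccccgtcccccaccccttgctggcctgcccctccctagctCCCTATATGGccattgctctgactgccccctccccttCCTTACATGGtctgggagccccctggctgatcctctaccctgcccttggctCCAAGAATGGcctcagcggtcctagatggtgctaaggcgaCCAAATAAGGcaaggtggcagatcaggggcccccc
Cnn1, chr9:22099003-22099215, plus strand: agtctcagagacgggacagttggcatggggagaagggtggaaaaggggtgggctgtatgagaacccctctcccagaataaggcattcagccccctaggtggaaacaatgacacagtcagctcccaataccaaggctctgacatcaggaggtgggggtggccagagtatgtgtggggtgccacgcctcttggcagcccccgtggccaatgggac
Postn, second start, chr3:54360857-54361106, plus strand: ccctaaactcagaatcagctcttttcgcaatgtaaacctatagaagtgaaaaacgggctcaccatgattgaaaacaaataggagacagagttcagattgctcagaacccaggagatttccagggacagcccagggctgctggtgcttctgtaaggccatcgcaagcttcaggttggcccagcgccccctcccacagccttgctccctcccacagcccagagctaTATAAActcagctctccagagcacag

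A CArG box stood in the Myl9 window, from 161 to 152 bases before the start, and in the Actc1 window, from 47 to 38 bases before it. Over all 32851 windows of this length, 1.47% held a CArG box and 7.24% the form with 1 changed letter. Acta2 had 2 matches to the changed form, at 84 to 75 and 34 to 25 bases before the start, Actc1 had 3 and Myl9 had 1. The first Acta2 match and the first Actc1 match have the same 10 letters. Neither the Cnn1 window nor the windows at both Postn starts held these letters, and the second Postn window has TATAAA from 26 to 21 bases before the start, a word found in 12.4% of windows.

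Total counts ran from 13537267 to 20569706 per library. Nap1l1 counts at day 0 were 16184 to 17300 in WT, 10348 to 11013 in alphaKO and 6067 to 6675 in fullKO, so reads of the gene remained in both knockouts. At day 4 they were 5697 to 6669 in WT, 5290 to 6360 in alphaKO and 3922 to 4292 in fullKO. What was deleted is not stated in the labels, and a sum over a gene does not separate its isoforms. As a check of the labelled cell type, 5 pluripotency markers (Pou5f1, Nanog, Sox2, Zfp42, Esrrb) had summed day 0 levels of 1964 to 2047 CPM in WT, 2795 to 2833 CPM in alphaKO and 3095 to 3110 CPM in fullKO. By day 4 the sums were 56 to 63 CPM in WT, 213 to 230 in alphaKO and 333 to 340 in fullKO.

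**Figure D1:**
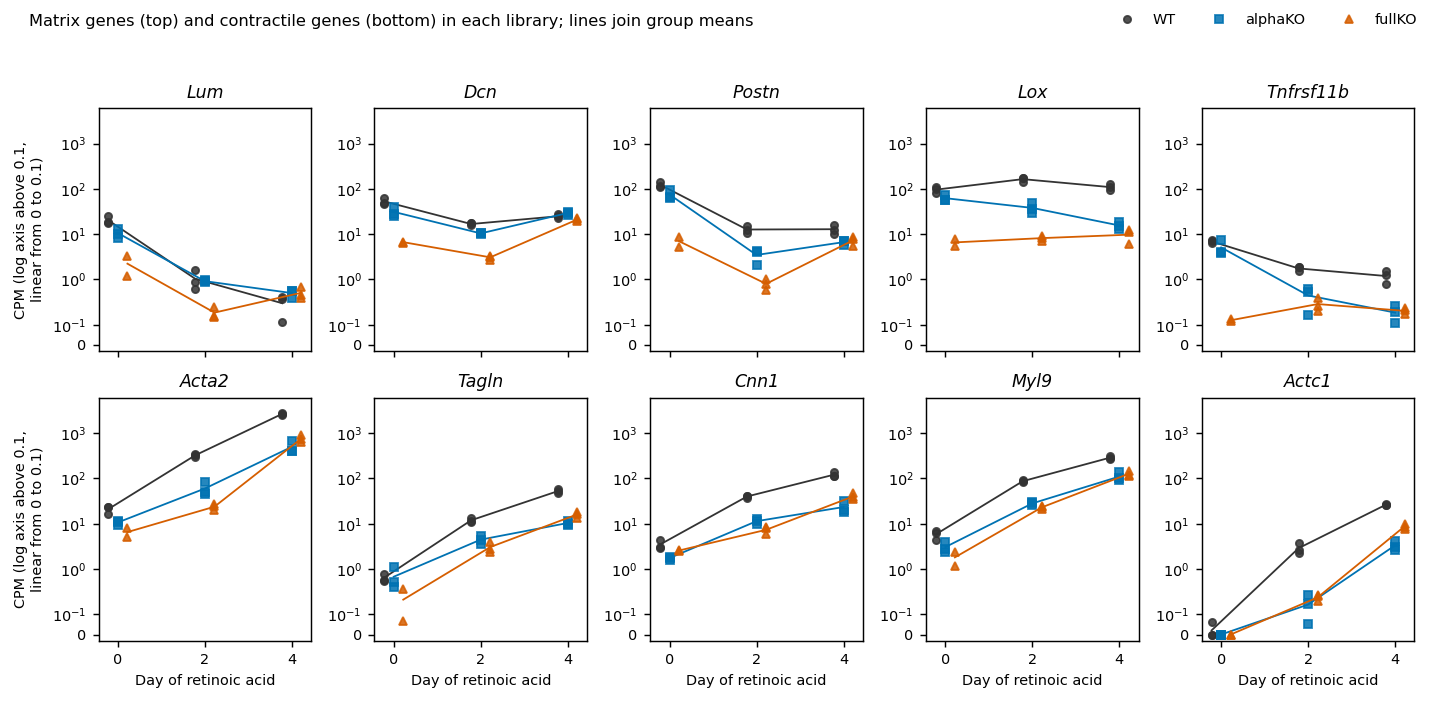
CPM of each gene (y axis, log scale above 0.1 CPM and linear below) in each of the 26 libraries by day of retinoic acid (x axis), for WT (circles), alphaKO (squares) and fullKO (triangles), with lines through the group means. All 5 contractile genes were higher on day 4 than on day 0 in every genotype, while Lum was lower on day 4 than on day 0 in every genotype and Lox was highest in WT on all 3 days.

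In WT, the libraries of each later day lay above those of the day before for all 5 contractile genes, and for 4 of 5 matrix genes the day 2 libraries lay below those of day 0. Of all genes tested, 37.4% had day 2 libraries wholly above those of day 0 and 34.6% wholly below, and 32.4% had day 4 libraries above those of day 2. Acta2 was at 16.1, 23.1 and 24 CPM on day 0, at 346, 337 and 295 on day 2 and at 2846, 2512 and 2676 on day 4, a log2 fold change of 7.0 ± 0.18 from day 0 to day 4. That is 128-fold, and the libraries of each day were clear of the others. Tagln was 6.36 ± 0.21, Myl9 5.63 ± 0.13 and Cnn1 5.12 ± 0.16 higher on the log2 scale over the same days. Actc1 had 1 count in the 3 day 0 libraries together, then 36, 39 and 61 counts on day 2 and 351, 458 and 449 on day 4. The ratio of day 4 to day 0 was 1270, with a 95% counting interval of 228 to 50173. These values chose the genes and are descriptive.

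The matrix genes followed 3 courses in WT. Lum was at 17.8, 24.8 and 18.2 CPM on day 0, at 1.61, 0.609 and 0.874 on day 2 and at 0.363, 0.417 and 0.115 on day 4, which is 67.7-fold lower than on day 0. Postn went from a mean of 124 ± 16.8 CPM (SD, n = 3) to 12.7 ± 2.19 on day 2 and stayed near it, at 12.9 ± 3.17, on day 4. Tnfrsf11b went from 6.92 ± 0.588 to 1.75 ± 0.219 and then to 1.19 ± 0.363. Dcn went down and partly back, from 53.0 ± 9.24 to 16.7 ± 1.04 and 24.9 ± 2.27 CPM. Lox was the exception, at 80.3, 108 and 99.7 CPM on day 0, 175, 173 and 145 on day 2 and 129, 107 and 92.5 on day 4, so that its day 2 libraries were above those of both other days and days 0 and 4 overlapped.

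At day 0, before retinoic acid, the matrix genes were graded by genotype. Postn libraries read 112, 143 and 117 CPM for WT, 61.4, 67.0 and 96.4 CPM for alphaKO, and 8.69 and 5.28 CPM for fullKO. The 3 genotypes did not overlap, and fullKO was 17.6-fold below WT (log2 fold change -4.14 ± 0.19, adjusted p = 5.52e-22, edgeR). Lox was 55.6, 57.3 and 74.1 CPM in the alphaKO libraries and 7.68 and 5.48 CPM in those of fullKO, below all 3 WT libraries given above. WT libraries had 49.7, 63.4 and 45.8 CPM of Dcn, alphaKO libraries 25.3, 27.4 and 40.6 CPM, and fullKO libraries 6.78 and 6.54 CPM. For Lum the alphaKO libraries gave 8.19, 10.2 and 13.3 CPM and the fullKO libraries 3.27 and 1.19. Libraries of Dcn and Lum did not overlap between genotypes either. The share of all genes whose libraries separate by genotype at day 0 is not given here, so the separation of these genes is descriptive.

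Against WT at day 0, 4 of 5 matrix genes were lower in alphaKO, where 20.9% of all genes tested were lower, and 5 of 5 were lower in fullKO, where 17.7% were. The WT libraries in these comparisons also entered the choice of the genes. The median log2 fold change of the 5 was -0.72 in alphaKO and -3.85 in fullKO, against -0.03 and -0.01 over all genes tested. Lum (-0.93 ± 0.19, adjusted p = 5.98e-05), Dcn (-0.76 ± 0.11, 1.33e-07), Postn (-0.72 ± 0.12, 5.32e-06) and Lox (-0.62 ± 0.13, 0.000101) were called in alphaKO by edgeR. Tnfrsf11b, the RANKL decoy, was not called there (-0.43 ± 0.23, adjusted p = 0.147, edgeR), with 6.25, 7.20 and 7.33 CPM in WT and 4.07, 3.88 and 7.34 in alphaKO. Without alphaKO replicate 3 it was called, at -0.80 (adjusted p = 0.0153, edgeR). In fullKO it had 2 counts in each library, 52.3-fold below WT (-5.71 ± 0.49, adjusted p = 2.4e-13, edgeR), the largest fold between genotypes given here for any of the 10. The comparison of alphaKO with fullKO, in which no WT library took part, put all 5 matrix genes higher in alphaKO, from 2.22 ± 0.27 for Lum to 5.27 ± 0.50 for Tnfrsf11b on the log2 scale, where 14.4% of all genes were higher.

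Other fibroblast genes moved with these at day 0. Of 15 fibroblast and mesenchyme markers outside the 10 genes (collagens, Thy1, Pdgfra, Pdgfrb, Prrx1, Twist1 and others), 14 were lower in alphaKO and 15 in fullKO than in WT, with medians of -0.73 and -2.63. Col3a1, a fibrillar collagen, was lower by 1.04 ± 0.11 in alphaKO and 3.21 ± 0.14 in fullKO on the log2 scale, and Col1a1, the main chain of type I collagen, by 0.88 ± 0.11 and 3.16 ± 0.14. All 15 had counts in every group. Their summed level was 2294 to 3050 CPM in WT, 1266 to 1935 in alphaKO and 289 to 418 in fullKO, and it was highest in the same libraries in which most matrix genes were: WT replicate 2 (4 of 5 matrix genes highest), alphaKO replicate 3 (5 of 5) and fullKO replicate 1 (4 of 5). The part of fibroblast-like cells in the day 0 differences was not tested, and in RNA from whole cultures fewer cells of a type and less RNA per cell cannot be told apart. Among relatives and partners of the matrix genes, 7 of 12 tested were lower and 2 higher in alphaKO, and 10 were lower and 1 higher in fullKO. Ogn and Aspn, of the same proteoglycan family as Lum and Dcn, were lower by 5.64 ± 0.82 and 5.57 ± 0.44 in fullKO, and the RANKL gene Tnfsf11 by 1.41 ± 0.32 in alphaKO.

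The contractile genes were low in every genotype at day 0. Acta2 libraries of alphaKO gave 11.7, 9.28 and 11.1 CPM and those of fullKO 8.03 and 5.09, below every WT library. Of the 5, 3 were lower in alphaKO than in WT (Acta2 -0.97 ± 0.23, Cnn1 -0.99 ± 0.28, Myl9 -0.90 ± 0.23), where 20.9% of all genes were. In fullKO 2 were lower (Acta2 -1.66 ± 0.30, Myl9 -1.65 ± 0.30), where 17.7% of all genes were. Cnn1 in alphaKO missed the threshold without WT replicate 2 (-0.78, adjusted p = 0.0507, edgeR). Tagln, at 0.584, 0.553 and 0.792 CPM in WT, was not called in fullKO at 0.357 and 0.066 CPM (-1.51 ± 0.64, adjusted p = 0.0625, edgeR). Without fullKO replicate 1 the value was -3.16, but it then rests on replicate 2 alone, which held 1 Tagln count. No Actc1 count was found in any knockout library at day 0, and 3 counts, the limit that a count of 0 allows, would be 0.056 CPM over the alphaKO libraries and 0.0939 over those of fullKO. Between alphaKO and fullKO, 0 of 5 contractile genes were called by edgeR, with adjusted p from 0.0501 for Tagln upward. Of the 5, 3 (Tagln, Myl9 and Acta2) had an unadjusted edgeR p under 0.05, and DESeq2 called 2 (Tagln and Myl9) higher in alphaKO.

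Both knockout genotypes raised the contractile genes by day 2, to lower levels than WT. In alphaKO, 5 of 5 rose from day 0 to day 2, where 34.5% of all genes rose, and in fullKO 5 of 5, where 33.5% rose. In alphaKO, Acta2 reached 51.3, 46.3 and 82.6 CPM, 2.49 ± 0.20 above day 0 on the log2 scale. FullKO libraries reached 26.7, 20.2 and 24.6 CPM (1.84 ± 0.29). All were below the lowest WT library at 295. Cnn1, which damps actomyosin activity, rose by 2.7 ± 0.22 in alphaKO and 1.51 ± 0.26 in fullKO. Myl9, which controls myosin in smooth muscle, rose by 3.18 ± 0.17 and 3.64 ± 0.23. Actc1 was found at 3, 5 and 1 counts in alphaKO and 5, 4 and 5 in fullKO, so its calls rest on few reads.

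On day 2 all 5 contractile genes were lower than in WT in both knockout genotypes, with no overlap between libraries. The WT libraries of days 2 and 4 are those whose rise chose these genes, so the fold changes and p-values against WT on both days are not independent of the choice. In alphaKO 20.3% of all genes tested were lower and in fullKO 23.8%, and libraries lay wholly below those of WT for 24.6% and 26.9% of genes. The median of the 5 was -1.81 in alphaKO and -2.44 in fullKO, against 0.01 and 0.02 over all genes. Acta2 was 5.42-fold lower in alphaKO (-2.44 ± 0.15, adjusted p = 2.97e-18, edgeR) and 13.7-fold lower in fullKO (-3.77 ± 0.16, adjusted p = 1.2e-23). Actc1, with the few knockout counts given above, was lower by 4.08 ± 0.38 in alphaKO and 3.57 ± 0.35 in fullKO on the log2 scale. Tagln, which encodes an actin-binding protein, ranged from 3.59 to 5.45 CPM in alphaKO, from 2.35 to 4.05 CPM in fullKO and from 11.1 to 13.4 CPM in WT. No contractile gene of the 5 was closer to WT than Tagln in alphaKO (-1.42 ± 0.16) or Myl9 in fullKO (-1.92 ± 0.10).

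**Figure D2:**
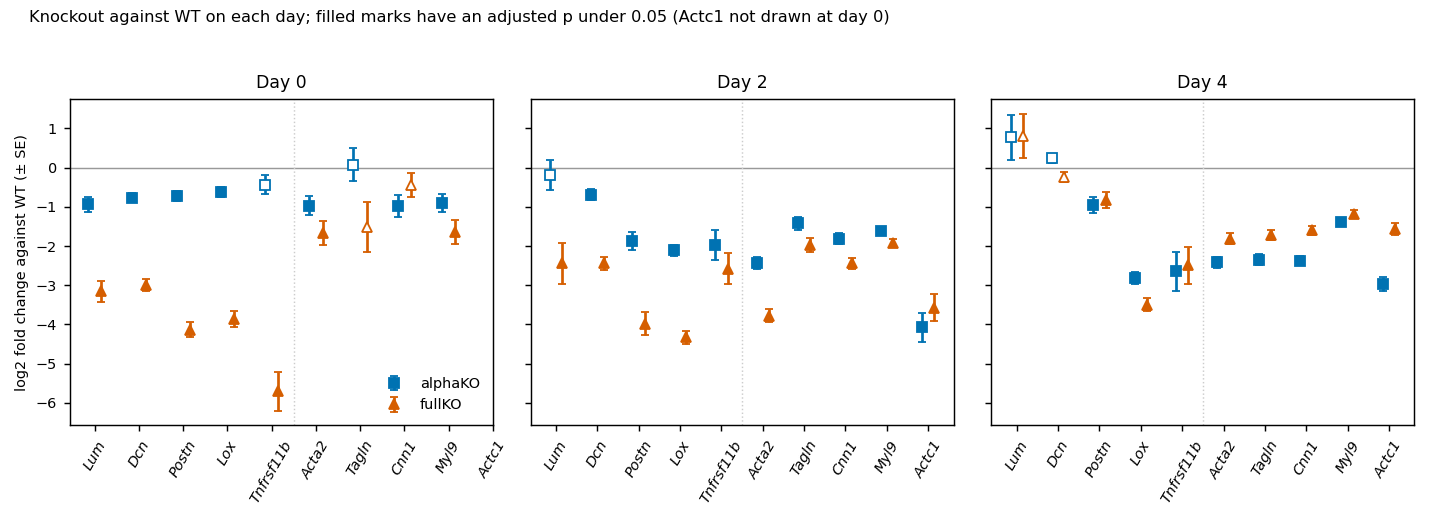
Log2 fold change against WT on the same day (y axis, ± SE) of the 5 matrix and 5 contractile genes (x axis) in alphaKO (squares) and fullKO (triangles) on days 0, 2 and 4; filled marks have an adjusted p under 0.05, and Actc1 is not drawn at day 0, where the knockout libraries hold no count of it. On day 4 every contractile gene lies below 0 in both genotypes, while Lum and Dcn are not called.

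By day 4 most contractile genes stood higher in fullKO than in alphaKO. Between days 2 and 4, 5 of 5 rose in alphaKO (30.1% of all genes rose) and 5 of 5 in fullKO (29.6%). Acta2 libraries gave 689, 413 and 402 CPM for alphaKO and 733, 642 and 920 CPM for fullKO, all below the 2512 CPM of the lowest WT library. All 5 were lower than in WT in alphaKO (24% of all genes were) and in fullKO (24.5%), with a median of -2.37 in alphaKO and -1.60 in fullKO against 0.06 and 0.02 over all genes. The fullKO change from day 0 to day 4 minus the WT change had a median of -0.15 over the 5 (-1.16 to 0.47, log2 scale). For alphaKO it was -1.39 (-2.42 to -0.48). These differences hold the WT change that chose the genes and were not tested. Actc1 had 1 count in WT at day 0 and 0 in each knockout, so its part is uncertain. Acta2 was 5.34-fold below WT in alphaKO and 3.50-fold in fullKO, Cnn1 5.19-fold and 3.02-fold, and Actc1 7.84-fold and 2.96-fold. Myl9 gave 136, 101 and 95 CPM for alphaKO and 122, 115 and 145 CPM for fullKO, which overlap, and had the smallest distance to WT (2.60-fold and 2.26-fold, 269 to 308 CPM). AlphaKO replicate 1 was the highest of its group, and fullKO replicate 3 of its group, for 5 of 5 contractile genes.

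Set against each other without WT, alphaKO was above fullKO on day 2 for 3 of 5 contractile genes (13% of all genes were higher): Acta2 by 1.34 ± 0.17, Cnn1 by 0.63 ± 0.16 and Tagln by 0.55 ± 0.20 on the log2 scale. On day 4 it was below fullKO for 4 of 5 (15.4% of all genes were lower): Actc1 by 1.40 ± 0.19, Cnn1 by 0.78 ± 0.12, Tagln by 0.64 ± 0.14 and Acta2 by 0.61 ± 0.13. Myl9 was not called on either day (0.29 ± 0.11, adjusted p = 0.0571, and -0.21 ± 0.09, adjusted p = 0.0663, edgeR). By edgeR it was called on day 4 without alphaKO replicate 1 (-0.38, adjusted p = 0.000306) or fullKO replicate 2 (-0.27, 0.0248). On day 2 it was called without alphaKO replicate 2 (0.36, adjusted p = 0.0346, edgeR) or fullKO replicate 3 (0.35, 0.0473) and with only the groups compared (0.29, 0.00407). The Tagln call on day 2 (adjusted p = 0.031) was lost without alphaKO replicate 2 or 3 or without fullKO replicate 1 or 2, with adjusted p of 0.0576, 0.232, 0.103 and 0.203 in that order (edgeR). The change from day 2 to day 4 itself, a comparison added after the data were seen, was smaller in alphaKO than in fullKO for 4 of 5 contractile genes, where 8.41% of all genes differed in that direction. Acta2 rose 8.34-fold in alphaKO and 32.1-fold in fullKO, a difference of -1.95 ± 0.22 (adjusted p = 2.78e-09, edgeR). The difference was -1.41 ± 0.20 for Cnn1, -1.19 ± 0.24 for Tagln and -0.49 ± 0.14 for Myl9, and for Actc1 it was not called (-0.90 ± 0.71, adjusted p = 0.456, edgeR). The Myl9 call (adjusted p = 0.0116) was lost without alphaKO day 4 replicate 3 (0.0529), without fullKO day 4 replicate 3 (0.0573) and by DESeq2 (0.122).

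**Figure D3:**
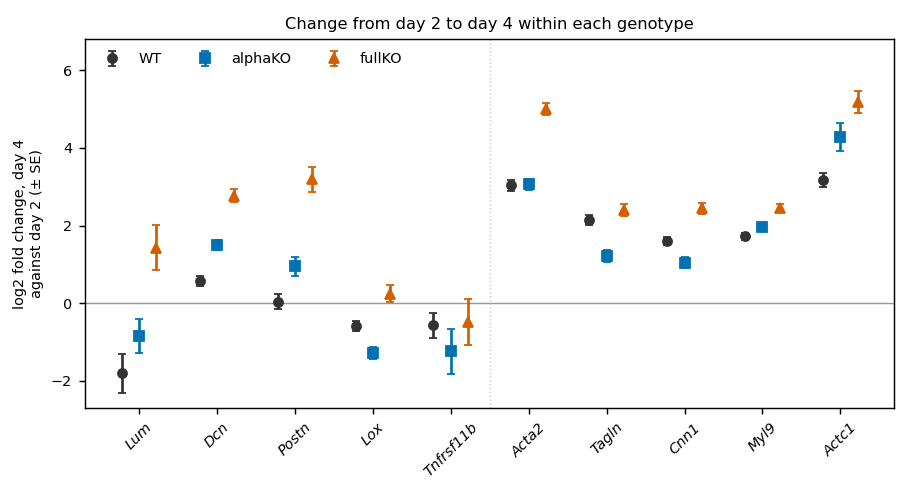
Log2 fold change from day 2 to day 4 (y axis, ± SE) of the matrix and contractile genes (x axis) within WT (circles), alphaKO (squares) and fullKO (triangles). The fullKO mark lies above the alphaKO mark for every gene, with Acta2 at 5.01 in fullKO and 3.06 in alphaKO.

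Matrix genes also fell by day 2 in the knockout genotypes. In alphaKO all 5 fell from day 0 to day 2 (33.5% of all genes fell), Postn to 4.11, 2.05 and 4.26 CPM (21.6-fold, log2 fold change -4.44 ± 0.18), and Lum and Tnfrsf11b by 3.52 ± 0.27 and 3.52 ± 0.33. From day 2 to day 4 in alphaKO, 2 of 5 rose and 1 fell, where 30.1% of all genes rose and 28.1% fell. In fullKO 3 of 5 fell (31.4% of all genes fell): Lum by 3.56 ± 0.48, Postn by 3.14 ± 0.36 and Dcn by 1.11 ± 0.21. Tnfrsf11b, already at 2 counts a library, was not called in fullKO (1.15 ± 0.78, adjusted p = 0.194, edgeR). Its change from day 0 to day 2 differed between the knockout genotypes by -4.67 ± 0.82 (adjusted p = 3.67e-05, edgeR).

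Lox parted from the other matrix genes and from its own course in WT. It fell in alphaKO from day 0 to day 2 (-0.72 ± 0.14) and again to day 4 (-1.29 ± 0.16), when the libraries were at 12.7, 15.2 and 18.6 CPM. In fullKO its libraries ran from 5.48 to 12.2 CPM over all 3 days, and it was not called between day 0 and day 2 (0.30 ± 0.27), day 2 and day 4 (0.24 ± 0.22) or day 0 and day 4 (0.54 ± 0.27, adjusted p = 0.0638, edgeR). By edgeR, the last was called without fullKO day 4 replicate 2 (0.81, adjusted p = 0.00507), with only those groups in the fit (0.52, 0.0298) and with no filter (0.55, 4.75e-05). Without fullKO day 0 replicate 1, which leaves replicate 2 alone on that day, it was 0.83. Day 2 to day 4 was called without fullKO day 4 replicate 2 (0.51, 0.0428) and with no filter (0.27, 0.0343). Against WT, Lox was 4.32-fold lower in alphaKO on day 2 and 7.03-fold on day 4, and 20.1-fold and 11.3-fold lower in fullKO. WT Lox at 92.5 to 175 CPM on days 2 and 4 was above every knockout library of any day. Of the lysyl oxidase relatives, Loxl4 was lower by 2.57 ± 0.17 in alphaKO and 2.91 ± 0.17 in fullKO on day 4, and Loxl2 by 1.95 ± 0.07 in fullKO.

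Dcn, in contrast, was near WT levels on day 4, after the WT mean of Dcn had gone from 53.0 to 24.9 CPM since day 0. On day 2 it ranged from 10.3 to 10.5 CPM in alphaKO and from 2.74 to 3.32 CPM in fullKO, below WT at 15.5 to 17.4, and then rose by 1.5 ± 0.13 in alphaKO and 2.77 ± 0.16 in fullKO. The day 4 libraries gave 29.3, 31.6 and 26.9 CPM for alphaKO, 21.3, 19.4 and 22.6 CPM for fullKO, and 24.6, 27.3 and 22.7 CPM for WT. Neither genotype was called against WT (0.24 ± 0.12, adjusted p = 0.0835, and -0.24 ± 0.12, adjusted p = 0.0939, edgeR). With no filter on low counts both were called, alphaKO as higher (0.0486) and fullKO as lower (0.0469), and with only the groups compared in the fit as well (0.0376 and 0.0307). Against day 0, Dcn in fullKO ended higher (1.66 ± 0.17), the 1 of 5 matrix genes that did where 39.5% of all genes rose, and Lum was the 1 that fell, where 34.6% fell. In alphaKO, where the other 4 matrix genes fell (35.7% of all genes fell), Dcn was not called (-0.09 ± 0.11). Contractile genes rose from day 0 to day 4, 5 of 5, in alphaKO (40.3% of all genes rose) and in fullKO.

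Postn also rose from day 2 to day 4 in fullKO, from 0.810, 0.589 and 1.0 to 8.81, 7.80 and 5.36 CPM (9.13-fold, 3.19 ± 0.32), and less in alphaKO, to 5.67, 7.23 and 7.07 CPM (0.95 ± 0.25). In fullKO, day 4 was not called against day 0 (0.05 ± 0.24, adjusted p = 0.848, edgeR), and the libraries overlap. Against WT on day 4, 3 of 5 matrix genes were lower in each genotype, where 24% of all genes were in alphaKO and 24.5% in fullKO. These were Postn, 1.94-fold in alphaKO and 1.77-fold in fullKO, Tnfrsf11b, 6.26-fold and 5.64-fold, and Lox. Lum was at or under 13 counts in every day 4 library and was not called in either. Over days 2 to 4, the change was lower in alphaKO than in fullKO for 4 of 5 matrix genes (Postn -2.25 ± 0.44, Lum -2.29 ± 0.73, Lox -1.53 ± 0.27, Dcn -1.28 ± 0.21), where 8.41% of all genes differed in that direction. The Lum call (adjusted p = 0.0245, edgeR) was lost without any of alphaKO day 4 replicate 3 (0.0543), fullKO day 2 replicate 1 (0.0611) or 3 (0.0545) or fullKO day 4 replicate 2 (0.0888). In fullKO 3 of 5 matrix genes rose over these days (29.6% of all genes did), but the Lum call (1.43 ± 0.59, adjusted p = 0.0343, edgeR) was lost without day 2 replicate 1 (0.0899) or 3 (0.0857) or day 4 replicate 2 (0.148). The fibroblast list outside the 10 genes rose with them in fullKO, 10 of 15 with 0 lower, Col3a1 by 5.74 ± 0.16, and its summed level went from 195 to 204 CPM to 797 to 866 CPM. That rise was shared by the other genotypes, with 9 higher and 2 lower in alphaKO and 9 higher and 3 lower in WT. The sums went from 334 to 410 CPM to 940 to 1038 CPM in alphaKO. In WT they went from 818 to 878 CPM to 1701 to 1808 CPM.

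Between alphaKO and fullKO, 4 of 5 matrix genes were higher in alphaKO on day 2 (13% of all genes were), from 1.75 ± 0.17 for Dcn to 2.26 ± 0.52 for Lum. On day 4, 2 of 5 were (17.4% of all genes were), Lox by 0.68 ± 0.20 and Dcn by 0.48 ± 0.12. The Lox call on day 4 (adjusted p = 0.00629, edgeR) was lost without alphaKO replicate 3 (0.0645) or fullKO replicate 2 (0.114), which leaves 1 of 5.

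Per kilobase of exon, which allows genes to be compared, the contractile sum passed the matrix sum between day 0 and day 2 in WT and alphaKO, while in fullKO it was the larger from day 0. The 5 matrix genes summed to 54.1 ± 7.65 CPM per kb in WT at day 0, the 5 contractile genes to 16.2 ± 3.11. At day 4 the matrix sum was 29.2 ± 4.00 in WT, 9.30 ± 0.584 in alphaKO and 6.77 ± 0.820 in fullKO. The contractile sum was then 1554 ± 94.3 for WT, 339 ± 96.5 for alphaKO and 486 ± 81.5 for fullKO. The ratio of contractile to matrix sums at day 0 was 0.262 ± 0.0511 in alphaKO and 0.30 ± 0.0443 in WT, with libraries that overlap, while in fullKO (n = 2) it was 1.30 ± 0.0411. By day 4 it was 29.1 to 52.2 in alphaKO, 49.3 to 62.0 in WT and 64.3 to 79.4 in fullKO. Lox led the matrix genes of WT at 20.1 CPM per kb on day 0 and 22.9 on day 4, and Acta2 alone made 78.5% ± 0.204 of the contractile sum of WT on day 4. The Acta2 share was lowest on day 2 in fullKO, 30.9% ± 3.52, where Myl9 led at 19.9 CPM per kb against 10.9 for Acta2.

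**Figure D4:**
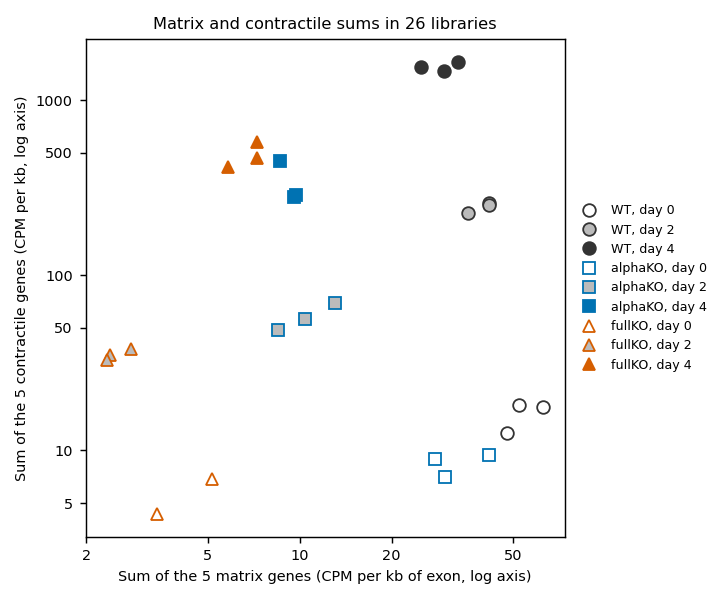
Sum of the 5 contractile genes (y axis) against the sum of the 5 matrix genes (x axis), both in CPM per kb of exon on log axes, in each of the 26 libraries; shape gives the genotype and fill the day. WT moved up with a small shift to the left, from 54.1 to 29.2 on the x axis, while no fullKO library exceeded 7.26 on that axis on any of the 3 days.

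Ordered by mean level, WT day 4 was first for all 5 contractile genes, a place favoured by their choice for a rise in WT. The libraries of WT day 4 lay above those of the next group, fullKO day 4. The share of all genes with such a separation is not given here. FullKO day 4 and alphaKO day 4 came next for Acta2 and Myl9 and overlapped in both genes. For Cnn1 and Tagln, WT on day 2 came between them, and it overlapped fullKO day 4 for Cnn1 and alphaKO day 4 for Tagln. For Actc1, fullKO day 4 lay above alphaKO day 4. For 4 of 5 matrix genes WT day 0 was first, and for Lox WT day 2 was. FullKO day 2 was last for Lum, Dcn and Postn, and fullKO day 0 was last for Lox and Tnfrsf11b.

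Other genes of the contractile apparatus moved with the 5. Of 14 other smooth muscle genes, 14 rose in WT from day 0 to day 4, where 40.7% of all genes rose. On day 2, 13 were lower than in WT in alphaKO and 13 in fullKO, and on day 4 it was 13 and 12. Myh11, the smooth muscle myosin heavy chain, was at 39.6 CPM in WT on day 4, 8.45 in alphaKO and 14.9 in fullKO, lower by 2.23 ± 0.17 and 1.41 ± 0.16 on the log2 scale. Tpm2, a tropomyosin, was lower by 2.48 ± 0.08 and 1.94 ± 0.07, and Pgm5 by 1.82 ± 0.12 and 2.15 ± 0.12. At day 0 the list was mixed, 4 higher and 6 lower in alphaKO, with Des, the intermediate filament desmin, higher by 1.88 ± 0.11 in alphaKO and 1.26 ± 0.12 in fullKO. As for the 5 genes, alphaKO was above fullKO for 9 of 14 and below for 1 on day 2, and below for 10 and above for 0 on day 4. The summed level on day 4 was 12369 to 13412 CPM in WT, 4373 to 5468 in alphaKO and 5690 to 6592 in fullKO.

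Relatives of the 5 genes differed in kind. Of 11, 10 were lower in alphaKO and 10 in fullKO on day 4. Acta1, skeletal actin, and Actg2, enteric smooth muscle actin, were lower by 2.77 ± 0.10 and 3.69 ± 0.21 in alphaKO and by 1.75 ± 0.09 and 3.21 ± 0.20 in fullKO. Tagln3, a transgelin of neurons, was instead higher in alphaKO (2.12 ± 0.22), at 7.01 CPM against 1.63 in WT. Of 12 genes that are SRF, its cofactors or genes that respond to actin, 12 rose in WT from day 0 to day 4. In alphaKO 12 were lower than in WT on day 2 and 11 on day 4, and in fullKO 11 and 10. Ccn2, a matricellular growth factor, was lower by 2.32 ± 0.10 and 1.70 ± 0.10 on day 4, and Srf, named here for its role, was at 85 CPM in WT, 65.1 CPM in alphaKO and 65.6 CPM in fullKO. At day 0 this list also differed between the knockout genotypes, with 5 lower than WT in alphaKO and 10 in fullKO, Ankrd1 by 1.33 ± 0.31 and 4.13 ± 0.57. Myocd, the smooth muscle cofactor of SRF, had no count in fullKO at day 0.

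The TGF-beta pathway raises both matrix and contractile genes in fibroblasts. Of 17 of its genes, 11 were lower and 2 higher in alphaKO on day 4, and 11 lower and 1 higher in fullKO. Of all genes tested, 24% were lower in alphaKO and 24.5% in fullKO. The list medians were -0.25 and -0.17 on the log2 scale. The list holds activators and inhibitors of the pathway, so these counts give no direction of signalling, which was not tested. The receptor gene Tgfbr2 was lower by 1.60 ± 0.11 in alphaKO and 1.59 ± 0.11 in fullKO. The ligand gene Tgfb2 stood at 160 CPM in WT, 77.1 in alphaKO and 63.1 in fullKO.

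Markers of other cell types that could hold contractile genes were measured beside them. Of all 18412 genes tested on day 4, 5293 were higher and 4414 lower than in WT in alphaKO. In fullKO, 4619 were higher and 4509 lower. Of 17 cardiac and striated muscle markers, 14 were tested, with 6 higher and 7 lower in alphaKO and 3 higher and 6 lower in fullKO on day 4. Their sum was 75 to 81 CPM in WT, 43 to 51 in alphaKO and 60 to 65 in fullKO, with Myl2 at 0 in alphaKO and Myod1 at 0 in fullKO. Tnnt2, cardiac troponin T, was at 2.10 CPM in WT, 0.261 in alphaKO and 0.725 in fullKO. Of 8 epithelial markers, 8 were lower in alphaKO and 7 in fullKO on day 4, and their sum was 3073 to 3396 CPM in WT, 874 to 1126 in alphaKO and 1735 to 2042 in fullKO. That order is the same as for the contractile sums, but it is not particular to epithelial markers. The cardiac sums had it, and so did the SRF list, at 2089 to 2168 CPM in WT, 887 to 987 in alphaKO and 1110 to 1230 in fullKO. The part of epithelial or cardiac cells in the day 4 differences was not tested. Of 8 primitive endoderm markers, 7 were higher and 0 lower in alphaKO, and 6 higher and 1 lower in fullKO. Of 6 endothelial and blood markers tested, 1 was higher and 3 lower in alphaKO and 1 higher and 1 lower in fullKO on day 4, with sums from 28.5 to 49.6 CPM over the 3 genotypes. All 5 pluripotency markers were higher than in WT in both knockout genotypes on day 4.

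Across the 26 libraries, the 5 contractile genes resembled each other more than the matrix genes did. Pairwise Pearson r of log2 CPM was 0.93 to 0.98 within the contractile genes, and within the matrix genes it ran from 0.39 for Lox with Lum to 0.85 for Dcn with Postn and for Postn with Lum. These libraries share days and genotypes, so the values describe a common course and are no test. The contractile genes were also chosen for a rise in WT, which favours likeness among them. Among 11753 ranked genes outside the 10, those most like the mean course of the matrix genes were Col1a2 (r = 0.960), Vcam1 (0.955), Itga11 (0.947), Fbln2 (0.946) and Prrx1 (0.941). Those most like the contractile genes were Piezo2 (0.989), Shroom3 (0.989), Flna (0.989), Aif1l (0.987) and Tmem127 (0.986). By Spearman's rho, 3 of the first 5 matrix-like genes remained and none of the contractile-like ones.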

How the data were processed

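Gene counts of 26 mRNA libraries (KAPA stranded mRNA kit, per the labels' protocols) were used as deposited by the authors, with reads aligned by STAR 2.7.1a to mm10 per the submitters' processing notes. Which program counted reads, with which strand setting and annotation, was not stated in the sources at hand, so sense and antisense reads may not be separable. IDs were matched to GENCODE M21 without version (55230 of 55471). Counts were fitted with edgeR 4.0.16 in R 4.3.3: TMM scaling, filterByExpr (18412 genes kept), 1 mean for each of 9 groups, the quasi-likelihood test and Benjamini-Hochberg adjustment at 0.05. Depths of 13537267 to 20569706 counts set the precision, and counting intervals and limits cover counting error only. Alternatives were DESeq2 1.42.0, RLE scaling, no filter, a filter of 1 CPM, only the groups compared, a replicate block and leaving out each library. The comparison of the knockout genotypes' changes and the CArG search with 1 changed letter were added after the data were seen.

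The 10 genes and all lists (fibroblast, relatives of each gene group, smooth muscle, SRF, TGF-beta, cardiac, epithelial, primitive endoderm, endothelial and blood, pluripotency) were chosen with earlier results of these data known. From each list, called genes among the 4 with the largest absolute log2 fold change in the comparison described, and markers at 0, are named. A gene that this rule would name is not reported here. Likeness was Pearson r to the mean of the centred log2 CPM of each gene group, among protein-coding genes with a group mean of at least 5 CPM. On simulated counts for alphaKO against WT at day 0 (16094 genes), the edgeR step recovered 92% of 100 genes changed 2-fold and 100% of 100 changed 4-fold, with 7 false calls. The changed genes were drawn from those above 1 CPM in WT at day 0. Tagln and Actc1, at 0.643 and 0.0205 CPM there, are thus not covered. All groups had the WT day 0 means apart from these changes, while the real comparison called 7105 genes.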

Additional observations from a re-analysis of the deposited data

Results flagged for a closer look

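The changes over days differed between the 2 knockout genotypes for several genes, by edgeR's test of the difference itself (alphaKO change minus fullKO change, log2 scale, Benjamini-Hochberg adjusted p). From day 0 to day 2 the difference was -1.02 ± 0.30 for Lox (adjusted p = 0.0145), -4.67 ± 0.82 for Tnfrsf11b (3.67e-05) and 1.18 ± 0.38 for Cnn1 (0.0241). Tnfrsf11b had 4 counts in fullKO at day 0 and 17 at day 2, against 278 and 24 in alphaKO. It therefore had almost no room to fall in fullKO, and its difference largely restates the day 0 gap. The Lox call was lost without fullKO day 2 replicate 3 (0.0537). Without fullKO day 0 replicate 2, which leaves 1 library on that day, the Lox difference was -0.80. The Cnn1 call was lost without alphaKO day 0 replicate 2 (0.0556) or fullKO day 2 replicate 2 (0.0557). Without fullKO day 0 replicate 1 or 2, the Cnn1 difference was 1.20 or 1.14, again with 1 library left on that day.

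From day 2 to day 4 the difference was -2.29 ± 0.73 for Lum, -1.28 ± 0.21 for Dcn, -2.25 ± 0.44 for Postn and -1.53 ± 0.27 for Lox among the matrix genes. Among the contractile genes it was -1.95 ± 0.22 for Acta2, -1.19 ± 0.24 for Tagln, -1.41 ± 0.20 for Cnn1 and -0.49 ± 0.14 for Myl9. All 8 are negative, so the change was lower in alphaKO. The libraries without which the Lum and Myl9 calls were lost are named with those genes above. FullKO has 2 libraries at day 0.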

How the results depend on the processing

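Of 2089 tested values of the 10 genes under an alternative, 2024 kept their direction and side of the threshold, 42 gained a call, 23 lost one and none reversed. The higher count of matrix genes in alphaKO against WT on day 4, 0, became 1 with no filter and with only the groups compared (Dcn), and was 0 to 1 when 1 library was left out. For alphaKO against fullKO at day 0, 0 contractile genes were higher, against 1 with RLE scaling, 1 with a filter of 1 CPM, 1 with only the groups compared, 2 by DESeq2 and 3 with no filter, and 0 to 2 with 1 library left out. Over all genes, 5344 were called there, and 3547 to 5094 with 1 library left out, fewest without fullKO replicate 1. The matrix genes higher in alphaKO than in fullKO on day 4, 2, were 1 to 2 with 1 library left out. The 1 matrix gene that fell from day 2 to day 4 in alphaKO became 1 to 2, with Tnfrsf11b added without alphaKO day 2 replicate 2. The 1 that rose from day 0 to day 4 in fullKO became 2 with no filter and 2 with only the groups compared (Lox), and 1 to 2 with 1 library left out. For the difference in change from day 0 to day 2 between the knockout genotypes, the matrix genes lower in alphaKO, 2, were 1 to 3 with 1 library left out, and the contractile genes higher, 1, were 2 with no filter and 0 to 1 with 1 library left out. The cause was not tested. Same-numbered libraries did not deviate together (50 correlations from -0.0436 to 0.0487), so the numbers were not taken as pairs. With the replicate block, Myl9 was called between alphaKO and fullKO on day 2 (0.28, adjusted p = 0.0462, edgeR) and day 4 (-0.21, 0.0473), and no other call of the 10 genes changed. Myl9 was also called there with no filter (0.000306 and 0.00104). Genes with few counts (Lum on days 2 and 4, Tnfrsf11b in fullKO, Actc1 before day 4) limit what can be seen.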
